A study of Mus musculus with 6 samples.

Results

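Death receptors and the necroptosis machinery were followed in N9 microglia, an immortalized line derived from mouse brain. The genes are Fas, Fadd, Casp8, Cflar, Ripk1, Ripk3, Mlkl and Birc3, and each was taken from the deposited count table by its gene name, so that 8 of the 54532 genes in the table are described. RNA-seq was done on 3 libraries of N9 cells kept with lipopolysaccharide (LPS) at 1 µg/ml for 6 h and on 3 libraries of untreated control cells. LPS is an outer membrane component of gram-negative bacteria. Nothing in the labels says whether the libraries came from separate cultures, so p-values measure the spread between these samples, which may be technical.

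Death receptors are membrane proteins of the TNF receptor family whose cytoplasmic death domain gathers an adaptor and a kinase when a ligand binds. FADD links the receptor to caspase-8, an initiator protease that starts apoptosis, and c-FLIP, the product of Cflar, is a relative of caspase-8 without protease activity that tempers it. Where caspase-8 is not active, the kinases RIPK1 and RIPK3 can join through a shared motif, and RIPK3 then phosphorylates MLKL, which breaches the plasma membrane in necroptosis. The ubiquitin ligase cIAP2, the product of Birc3, modifies RIPK1 at the receptor and favors survival signaling. In microglia and macrophages, this branch point is known to be controlled by Toll-like receptors as well as by TNF.

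In LPS-stimulated versus control N9 microglia, the receptor Fas rose 6.87-fold, and Cflar, Mlkl and Birc3 rose between 1.77-fold and 1.80-fold. Casp8 rose 1.34-fold. Ripk3 fell to 0.696 of its control level, whereas neither Fadd nor Ripk1 passed the test. In bulk RNA, fewer cells of a kind and less RNA per cell cannot be told apart. In all, 5 of the 8 genes were higher and 1 was lower at an adjusted p under 0.05 by edgeR's quasi-likelihood test, beside 18.7% of all 12296 tested genes that were higher and 15.7% that were lower, or 34.3% either way. The libraries of the groups did not overlap for the same 6 genes, with LPS above control for 5 and below it for 1, as they did not for 45.3% of all tested genes (23.7% above and 21.5% below). Only Fas among the 8 was a differentially expressed gene (DEG) by the study's rule, which also asks for an absolute log2 fold change over 1.5 and which 2.4% of tested genes met upward and 0.252% downward. All 8 genes passed the filter on low counts, with means from 372 counts per library for Fadd to 3200 for Cflar. The median log2 fold change of the 8 genes was 0.621, beside 0.004 over all tested genes.

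**Figure D1:**
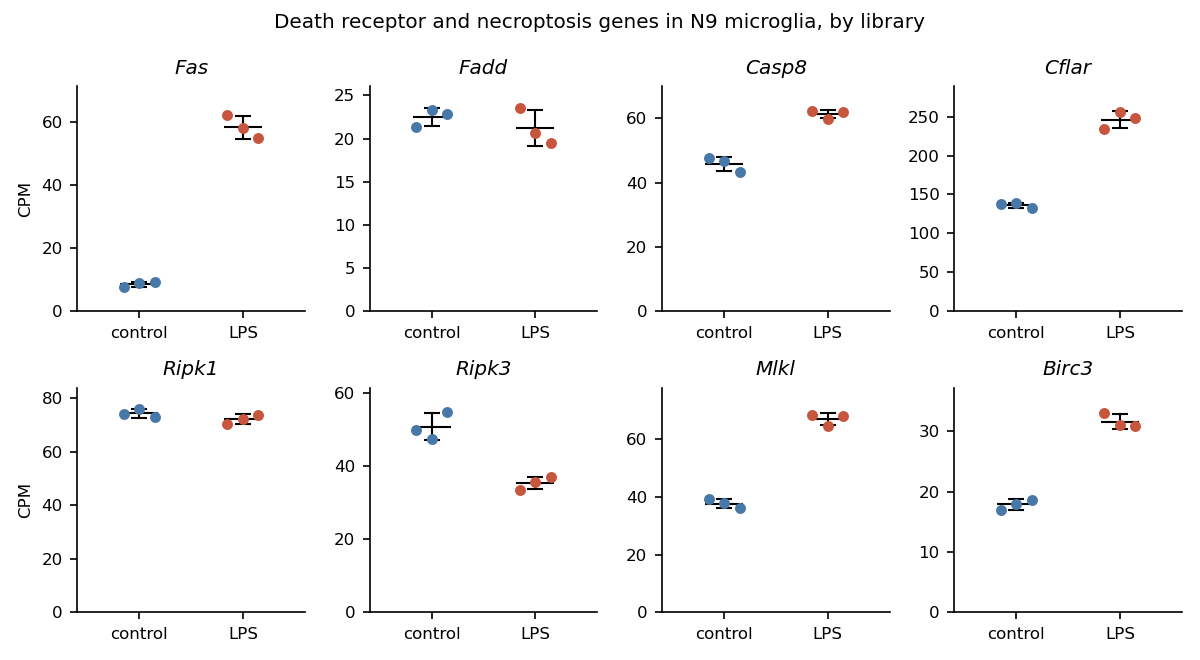
Level of each gene in CPM (counts scaled to a common library size, y axis from 0) in the 3 control libraries (blue) and the 3 LPS libraries (red), with black bars for the mean and SD. The groups are apart for 6 genes, with Ripk3 the one that is lower with LPS, and they overlap for Fadd and Ripk1.

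The libraries held between 16363767 and 17956772 counts, and 3 counts, the limit below which a gene is treated here as not counted, correspond to between 0.161 and 0.19 CPM. CPM are counts scaled to library sizes after TMM normalization. Of 13 microglia markers, 9 had at least 10 counts in every library, among them Csf1r, Cd68 and Ptprc. The other 4 did not, which were Aif1, C1qa, P2ry12 and Sall1, with at most 11 counts in any library. Hepatocyte markers stood apart in control replicates 2 and 3, where for example Alb had 155 and 292 counts against 2 in control replicate 1. The summed level of these 15 markers was between 5.43 and 31.7 CPM in control libraries and between 5.13 and 7 CPM in LPS libraries. Ambp, which lay between 4.69 and 7.03 CPM in every library, made up most of the low sums. With both of those control libraries left out, edgeR called 5 of the 8 genes higher and 1 lower. That fit leaves 1 control library, which is assumed to vary like the LPS libraries. At least 10 counts in every library were found for 2 of 5 astrocyte markers, 2 of 5 neuron markers, 1 of 5 oligodendrocyte markers and 0 of 4 endothelial markers. By edgeR at an adjusted p under 0.05, the called markers went both ways in the microglia, astrocyte and neuron lists. Of 9 tested microglia markers, Csf1r and Ptprc were higher, at log2 fold changes of 0.16 and 0.24, 2 were lower, among them Trem2 at -0.52, and 5 did not pass. Of 3 tested astrocyte markers, Gja1 was higher at 0.18 and Aldh1l1 lower at -0.29, and of 2 tested neuron markers, Tubb3 was higher at 1.67 and Map2 lower at -0.41. The only tested oligodendrocyte marker, Mbp, was lower at -0.34, and the only tested endothelial marker, Kdr, was higher at 2.24 on at most 21 counts. The summed levels in control against LPS libraries were 26.3 to 27.8 against 27.7 to 32.3 CPM for the neuron list, 0.283 to 0.861 against 1.65 to 2.32 CPM for the endothelial list and 33.5 to 40.3 against 28.3 to 29.6 CPM for the oligodendrocyte list. They were 96 to 98.7 against 96 to 105 CPM for the astrocyte list and 1750 to 1830 against 1840 to 1880 CPM for the microglia list. Their part in the results of the 8 genes was not tested.

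Fas (ENSMUSG00000024778) lies on chromosome 19 of GRCm38 from 34290659 to 34327770 on the plus strand and encodes the death receptor CD95. It was counted 128, 156 and 168 times in control and 979, 949 and 900 in LPS libraries, or 7.47, 8.84 and 9.04 CPM against 62.1, 57.9 and 54.8 CPM. Every LPS library was several times above every control library. The log2 fold change was 2.78 (standard error, SE, 0.089, edgeR adjusted p = 3.62e-12), the 118th highest among the tested genes. With each library left out in turn it lay between 2.69 and 2.83. The ligand of this receptor, encoded by Fasl, had 0 counts in all 6 libraries, which allows at most 3 counts in each, so that the receptor was counted here without its ligand. Reads of a small RNA gene inside Fas, Gm27818, were at 0 in every library.

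The 250 bases before the start of Fas are printed because this gene rose most, from the RefSeq table for GRCm38.p6 (chr19:34290409-34290658, plus strand, 5′ to 3′). Capitals mark a match to the STAT-binding GAS motif.
Fas promoter: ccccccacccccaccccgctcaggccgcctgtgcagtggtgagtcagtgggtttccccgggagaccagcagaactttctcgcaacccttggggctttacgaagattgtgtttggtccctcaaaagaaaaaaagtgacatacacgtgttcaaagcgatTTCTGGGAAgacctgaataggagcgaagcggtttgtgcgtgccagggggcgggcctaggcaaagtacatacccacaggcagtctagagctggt
The letters searched on both strands were TTCNNNGAA for GAS, a pair of GAAA repeats 2 bases apart for the interferon-stimulated response element (ISRE) and the NF-kB consensus. The match begins 93 bases before the start and overlaps no match of the other motifs. Of 32851 promoter windows of this length, 7.02% hold GAS letters, 2.98% ISRE letters and 7.25% NF-kB letters. All 8 genes had at least 1 window, 9 in all because Ripk1 has a pair of listed starts. The remaining matches were both GAS letters in the window before the second start of Ripk1, a gene that did not pass the test, so that a match occurred with and without a called change. No window of the 8 genes held ISRE or NF-kB letters, which says only that these letters are not in these 250 bases. The only window of Casp8 lies before a RefSeq start 7128 bases inside the gene as the count table places it, so the bases before the table's start of Casp8 were not searched. The second start of Ripk1 lies 511 bases inside the gene, and the other starts lie within 28 bases of the table's.

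Fadd (ENSMUSG00000031077; chromosome 7, 144577318 to 144582463, minus strand) encodes the adaptor between the receptor and caspase-8. It was at 21.4, 23.3 and 22.9 CPM in the control libraries and at 23.5, 20.7 and 19.5 CPM in the LPS libraries. The groups overlapped, since LPS replicate 1 was the highest of all and the other LPS libraries were the lowest. The log2 fold change was -0.0845 (SE 0.091, edgeR adjusted p = 0.526), with a 95% interval from -0.28 to 0.11, or from 0.823 to 1.08 times the control level. An antisense gene, Faddos, overlaps Fadd on the plus strand from 144567355 to 144581512. It had 11, 9 and 13 counts with control and 38, 40 and 40 with LPS, a log2 fold change of 1.96 (SE 0.30, edgeR adjusted p = 1.38e-04). Whether reads were counted by strand is not given in the sources used here, so reads of Fadd and Faddos cannot be told apart.

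Casp8 (ENSMUSG00000026029) lies on chromosome 1 from 58795374 to 58847503 on the plus strand. Its levels were 47.5, 46.8 and 43.4 CPM in control and 62.3, 59.8 and 62 CPM in LPS libraries. The groups did not overlap, and the spread within each was small beside the distance between them. The log2 fold change was 0.42 (SE 0.057, edgeR adjusted p = 3.91e-05), the smallest of the changes that passed the test among the 8 genes.

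Cflar (ENSMUSG00000026031) lies on the same chromosome and strand from 58711508 to 58758884, 36489 bases away from Casp8, with 1 gene of the table between them, Gm3841, at 0 counts in every library. It had the most counts of the 8 genes, with 2343, 2446 and 2472 in control and 3689, 4190 and 4067 in LPS libraries. In CPM these were 137, 139 and 133 against 234, 256 and 248. Every LPS library was far above every control library, by a log2 fold change of 0.85 (SE 0.047, edgeR adjusted p = 1.83e-09). Gene counts do not separate the long and short forms of c-FLIP, which differ in their activity toward caspase-8.

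The balance of c-FLIP and caspase-8 transcripts was compared within each library as the log2 CPM of Cflar minus that of Casp8. It was 1.525, 1.564 and 1.614 in control and 1.906, 2.092 and 1.996 in the LPS libraries. All LPS libraries were therefore higher, with a mean of 2.00 ± 0.093 against 1.57 ± 0.045 (SD, n = 3), a difference of 0.43 (exact permutation test, two-sided, p = 0.1, the smallest that 3 against 3 can give). Read counts per Casp8 read went from 2.96 to 4 reads of Cflar.

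Ripk1 (ENSMUSG00000021408; chromosome 13, 34002363 to 34037147, plus strand) encodes the kinase that can steer a death receptor complex to survival, apoptosis or necroptosis. It was at 74, 76.1 and 72.9 CPM in control and 70.4, 72.4 and 73.9 CPM in LPS libraries, with overlapping groups. The log2 fold change was -0.0424 (SE 0.048, edgeR adjusted p = 0.55) and its 95% interval ran from -0.15 to 0.06. The 5′ end of Ripk1 overlaps Serpinb6a on the opposite strand, which had from 4084 to 5010 counts and rose by 0.32 on the log2 scale (SE 0.05, edgeR adjusted p = 6.77e-05). How far reads of the overlap entered either count was not tested.

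Ripk3 (ENSMUSG00000022221; chromosome 14, 55784995 to 55788865, minus strand) encodes the kinase that phosphorylates MLKL, and it was the one member of the 8 that fell. It had 855, 840 and 1021 counts in control and 530, 584 and 607 in LPS libraries, or 49.9, 47.6 and 54.9 CPM against 33.6, 35.6 and 37 CPM. Every LPS library was below every control library, although control replicate 3 stood above the other controls. The log2 fold change was -0.52 (SE 0.07, edgeR adjusted p = 3.34e-05). Without control replicate 3 it was -0.469, the smallest decrease among the fits that left out 1 library. The 250 bases before its RefSeq start (chr14:55788858-55789107, minus strand, 5′ to 3′) are printed for contrast with Fas, as the gene that fell, and hold none of the letters searched.
Ripk3 promoter: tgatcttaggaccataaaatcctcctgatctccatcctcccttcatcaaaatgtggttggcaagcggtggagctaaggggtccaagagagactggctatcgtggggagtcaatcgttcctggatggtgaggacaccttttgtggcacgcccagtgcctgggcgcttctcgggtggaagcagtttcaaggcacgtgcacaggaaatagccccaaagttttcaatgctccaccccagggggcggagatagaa

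Within each library, the log2 CPM of Ripk3 minus that of Ripk1 was -0.567, -0.676 and -0.409 in control and -1.064, -1.021 and -0.997 in LPS libraries. The LPS libraries were the lower ones without overlap, and the group means differed by -0.48 (exact permutation test, two-sided, p = 0.1). Both kinases carry the motif through which they join, and their transcripts went from 0.683 to 0.491 reads of Ripk3 per read of Ripk1.

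Mlkl (ENSMUSG00000012519; chromosome 8, 111311797 to 111338177, minus strand) encodes the executioner of necroptosis. Its control levels were 39.2, 37.9 and 36.2 CPM and its LPS levels 68.5, 64.6 and 68.1 CPM. The groups were far apart, with a log2 fold change of 0.83 (SE 0.058, edgeR adjusted p = 2.92e-08). Mlkl and Ripk3, the substrate and its kinase, thus moved in opposite directions. The processed pseudogene Gm45712 inside Mlkl had at most 1 count in any library.

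Birc3 (ENSMUSG00000032000; chromosome 9, 7848699 to 7873186, minus strand) encodes cIAP2. It was at 17, 18 and 18.7 CPM in control and 33.1, 31 and 30.9 CPM in LPS libraries, again without overlap. The log2 fold change was 0.82 (SE 0.08, edgeR adjusted p = 1.24e-06). Its neighbor Birc2, which encodes the paralog cIAP1, lies 11634 bases away with no gene of the table between them. Birc2 was at 15, 13.8 and 15.9 CPM in control and 13.2, 13.3 and 13 CPM in LPS libraries, slightly lower without overlap, but did not pass the test (log2 fold change -0.18, SE 0.10, edgeR adjusted p = 0.196). The log2 CPM difference of the paralogs was 0.178, 0.385 and 0.233 in control and 1.32, 1.213 and 1.237 in LPS libraries, so that every LPS library lay above every control library, with means 0.99 apart (exact permutation test, two-sided, p = 0.1). The promoter of Birc3 (chr9:7873171-7873420, minus strand, 5′ to 3′) is printed because the gene is a textbook NF-kB target, and this window holds none of the letters searched.
Birc3 promoter: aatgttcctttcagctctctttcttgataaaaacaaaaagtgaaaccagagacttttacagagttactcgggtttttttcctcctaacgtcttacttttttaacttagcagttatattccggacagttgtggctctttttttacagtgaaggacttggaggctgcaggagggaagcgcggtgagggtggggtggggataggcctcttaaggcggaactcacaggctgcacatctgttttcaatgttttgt

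**Figure D2:**
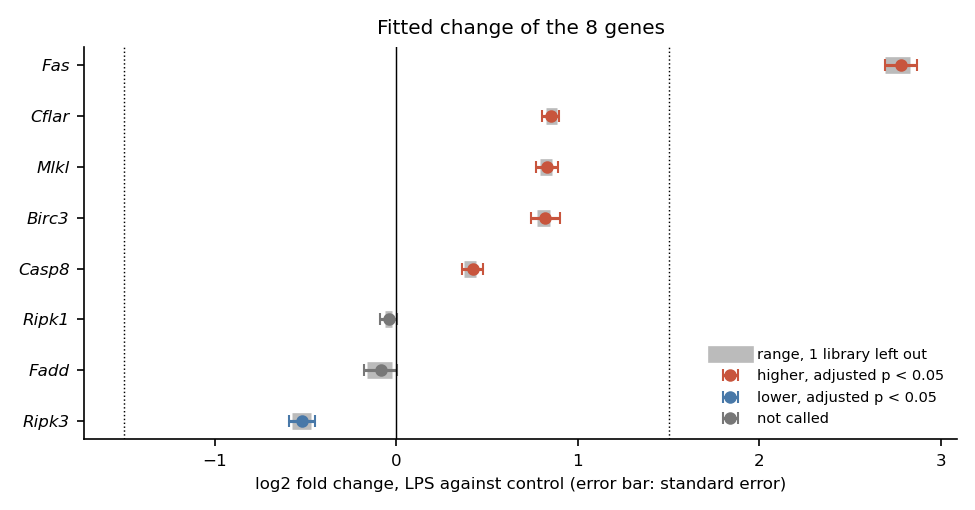
Log2 fold change (x axis) of each gene with its standard error as the error bar. Gray bars span the fits that left out 1 library in turn and dotted lines mark the DEG threshold of 1.5 either way, which only Fas passed, while Cflar, Mlkl and Birc3 lie between 0.82 and 0.85.

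**Figure D3:**
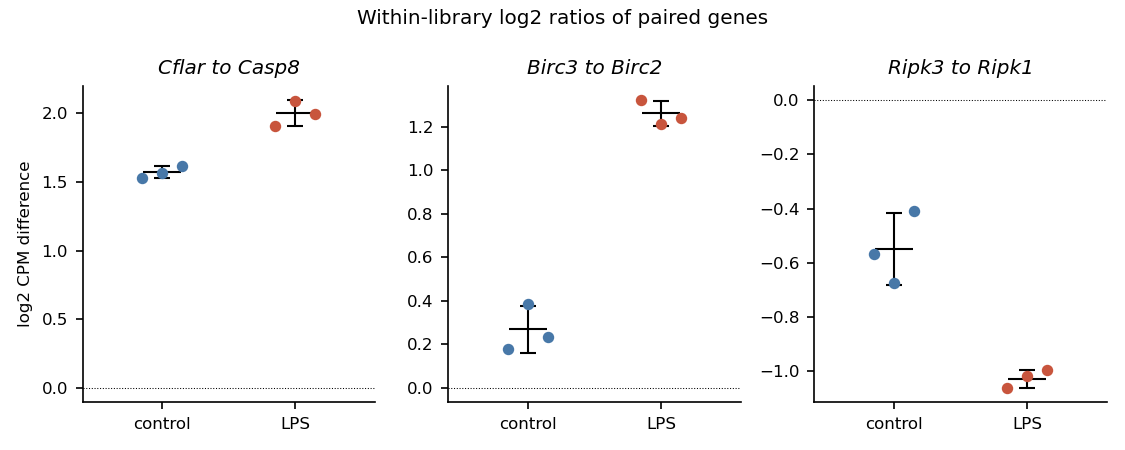
Log2 CPM of the first gene minus that of the second in each library (points), with the mean and SD in black for control (blue) and LPS (red). The LPS libraries lie above the controls for Cflar to Casp8 and Birc3 to Birc2 and below them for Ripk3 to Ripk1, without overlap, and the y axes do not start at 0.

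Levels of different genes were compared per kilobase (RPKM, computed here from the counts and the gene length in the table). In control cells Ripk3 had the highest mean, 22.2 ± 1.63 RPKM, followed by Mlkl at 16.4 ± 0.67 and Casp8 at 15.9 ± 0.763 (SD, n = 3). Mlkl and Casp8 did not differ beyond their spread. Cflar at 10.7 ± 0.228, Ripk1 at 8.91 ± 0.194, Fadd at 5.77 ± 0.26, Fas at 4.69 ± 0.474 and Birc3 at 3.57 ± 0.169 RPKM followed, each beyond the SD of the one before. With LPS the order opened with Fas at 32.3 ± 2.02 and Mlkl at 29.1 ± 0.911 RPKM, so that Fas went from the seventh to the first place of the 8. Casp8 at 21.2 ± 0.466, Cflar at 19.4 ± 0.867, Ripk3 at 15.4 ± 0.74, Ripk1 at 8.65 ± 0.211, Birc3 at 6.32 ± 0.249 and Fadd at 5.44 ± 0.529 RPKM came after. No neighbors in the LPS order overlapped between libraries, although some lay close, such as Birc3, at least 6.16 RPKM, and Fadd, at most 6.02 RPKM. Mlkl was below Ripk3 in every control library, at most 17 against at least 20.8 RPKM, and above it in every LPS library, at least 28.1 against at most 16.1 RPKM.

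The place of a gene in this order depends on the length taken for it. The table gives Cflar 12669 bases and Ripk1 8344 bases, whereas their annotated coding transcripts have a median of 2586.5 and 3266 bases in GENCODE release M21. With such transcript lengths, an alternative added after the data were seen, Cflar was first in both groups, at 52.6 RPKM in control and 95 RPKM with LPS. Fas then went from 6.02 to 41.5 RPKM, from the seventh to the second place, and Fadd was last in both groups, at 5.77 and 5.44 RPKM. The position of Fas in GENCODE release M21 differs from that of the gene as counted, so its transcript length may not match. The crossing of the kinase and its substrate was kept, with Ripk3 at 27.2 and Mlkl at 19.1 RPKM in control against 19 and 33.9 RPKM with LPS.

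**Figure D4:**
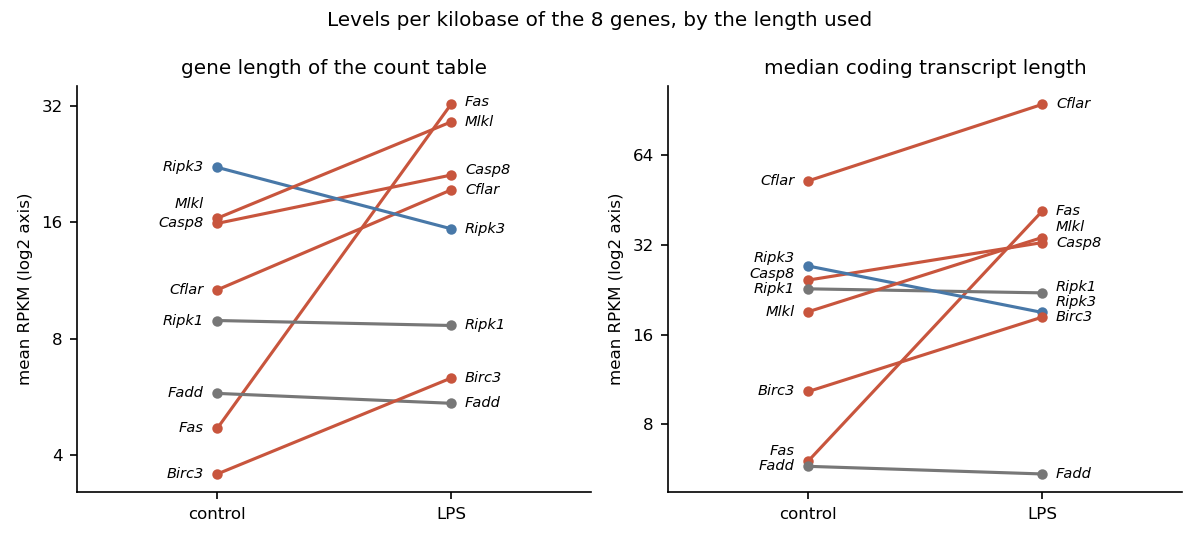
Mean RPKM (y axis, log2 scale) in control and LPS libraries, per kilobase of the gene length in the table (left) and of the median coding transcript (right). Lines join the 2 means of a gene and are red for genes that were higher, blue for lower and gray for not called. Fas climbs past most others in both panels, and Ripk3 and Mlkl cross.

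The pattern most like that of Fas across the 6 libraries, by Euclidean distance of centered log2 CPM over 9912 well counted coding genes, was that of Lrrc25 (distance 0.141), a leucine-rich repeat protein. Lrrc25 went from 11.6, 14.3 and 15.3 CPM in control to 95, 87.8 and 90.6 CPM with LPS. Samd9l (distance 0.26) and the chemokine gene Ccl7 (distance 0.269) came next. With 2 groups of libraries such likeness is common, and 1042 of the 9912 genes had a correlation with Fas over 0.95.

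The wider pathway was described with 4 lists of 83 genes, of which 73 were tested. Of these, 28 were higher and 9 lower at an adjusted p under 0.05 by edgeR, and 36 did not pass, beside 18.7% higher and 15.7% lower among all tested genes. Among 16 death ligands and receptors, 9 were tested, 4 were higher and 1 was lower, with a median log2 fold change of 0.204. Tnfsf10, the gene of the death ligand TRAIL, had 6, 2 and 7 counts in control and 127, 114 and 98 in LPS libraries, a log2 fold change of 4.60 (SE 0.31, edgeR adjusted p = 2.21e-08) on few control counts. Tnfrsf10b, a receptor gene of TRAIL, had at most 2 counts in any library. Tnf, encoding the ligand of both TNF receptors, was at 14.3, 15.8 and 17.3 CPM in control and 230, 230 and 238 CPM with LPS (edgeR adjusted p = 1.56e-15).

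The TNF receptor genes differed from each other. Tnfrsf1b, whose protein TNFR2 has no death domain, was at 57.9, 55.7 and 58.1 CPM in control and 468, 488 and 471 CPM with LPS, a log2 fold change of 3.06 (SE 0.046, edgeR adjusted p = 1.01e-15). Tnfrsf1a, whose protein TNFR1 carries one, was at 130, 138 and 135 against 153, 149 and 136 CPM and did not pass (log2 fold change 0.12, SE 0.051, edgeR adjusted p = 0.0842). Without LPS replicate 3 it passed, at 0.17. The difference between these receptors was not tested. Tnfrsf23, a decoy receptor gene, rose by 0.37 on the log2 scale (SE 0.087, edgeR adjusted p = 0.00376), and the gene that fell was Tnfrsf21, encoding death receptor 6, at 24.1, 24.4 and 25.2 CPM against 20, 22.5 and 18.6 CPM (log2 fold change -0.27, SE 0.089, edgeR adjusted p = 0.0292). The call of Tnfrsf21 was lost by DESeq2 and without control replicate 2, control replicate 3, LPS replicate 1 or LPS replicate 3.

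Of 28 adaptors and ubiquitin regulators of the receptor complex, all were tested, 14 were higher and 0 lower by edgeR, with a median log2 fold change of 0.162. RLE factors, no filter, the replicate block and the fit without control replicate 2 each called 1 of them lower, and most other settings called 0. Those that rose most were Traf1, a TNF receptor adaptor that rose by 3.91 on the log2 scale, Tnfaip3, whose product A20 edits ubiquitin chains on RIPK1 (2.34), the kinase gene Ikbke (1.81) and the Fas-interacting Daxx (1.62). Their largest standard error was 0.13 and their edgeR adjusted p lay between 5.74e-13 and 1.88e-11. Traf1 was at 2.57, 1.64 and 2.37 CPM in control and 32.3, 33.4 and 33.5 CPM with LPS, and Tnfaip3 at 18.2, 19.7 and 21 CPM against 96.1, 103 and 98.6 CPM. Cyld, a deubiquitinase gene of the same complex, had a log2 fold change of 0.0147 (SE 0.056, edgeR adjusted p = 0.869), a value whose sign depended on the libraries included. Xiap, a further inhibitor of apoptosis gene, was at -0.0795 (SE 0.046, edgeR adjusted p = 0.209).

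Of 23 necroptosis triggers and regulators, 20 were tested, 9 were higher and 4 lower, with a median log2 fold change of 0.129. Tlr3, the receptor of double-stranded RNA, was at 13, 10.6 and 12.7 CPM in control and 44.6, 43.7 and 38.7 CPM with LPS, a log2 fold change of 1.80 (SE 0.095, edgeR adjusted p = 1.19e-09). Ticam1, whose product TRIF passes Toll-like receptor signals to RIPK1 and RIPK3, was at 17.5, 18.9 and 19.1 CPM against 34.4, 31.3 and 31.5 CPM (0.81, SE 0.081, edgeR adjusted p = 1.73e-06). The RNA-editing gene Adar rose by 1.52 and Peli1, a ubiquitin ligase gene, by 1.04. Tlr4, the LPS receptor gene, was at 90.9, 89.5 and 84.6 CPM in control and 59.1, 59.2 and 66 CPM with LPS, and fell by 0.52 on the log2 scale (SE 0.056, edgeR adjusted p = 3.64e-06). Mertk, a receptor kinase gene of phagocytes, fell from 29.8, 28.5 and 31.3 to 11.7, 12.8 and 11.9 CPM (log2 fold change -1.30, SE 0.088, edgeR adjusted p = 2.09e-08). Zbp1, encoding a further activator of RIPK3, had 0, 1 and 2 counts in control and 0, 0 and 1 in LPS libraries. It thus did not rise to a well counted level with LPS, while a fall or a small change was not detectable at this depth.

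Of 16 downstream caspases and mitochondrial genes, all were tested, 1 was higher and 4 were lower, with a median log2 fold change of 0.02. The number higher depended on the fit, with 4 without control replicate 1 and 3 with the replicate block. The gene called higher with all libraries and no replicate term was Bid, the caspase-8 substrate that carries the signal to mitochondria. Bid was at 108, 105 and 104 CPM in control and 165, 160 and 154 CPM with LPS (log2 fold change 0.60, SE 0.045, edgeR adjusted p = 7.91e-08). Parp1, a caspase substrate gene, and Bax, the pore-forming gene, were among the 4 that fell, by 0.18 and 0.15 on the log2 scale.

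**Figure D5:**
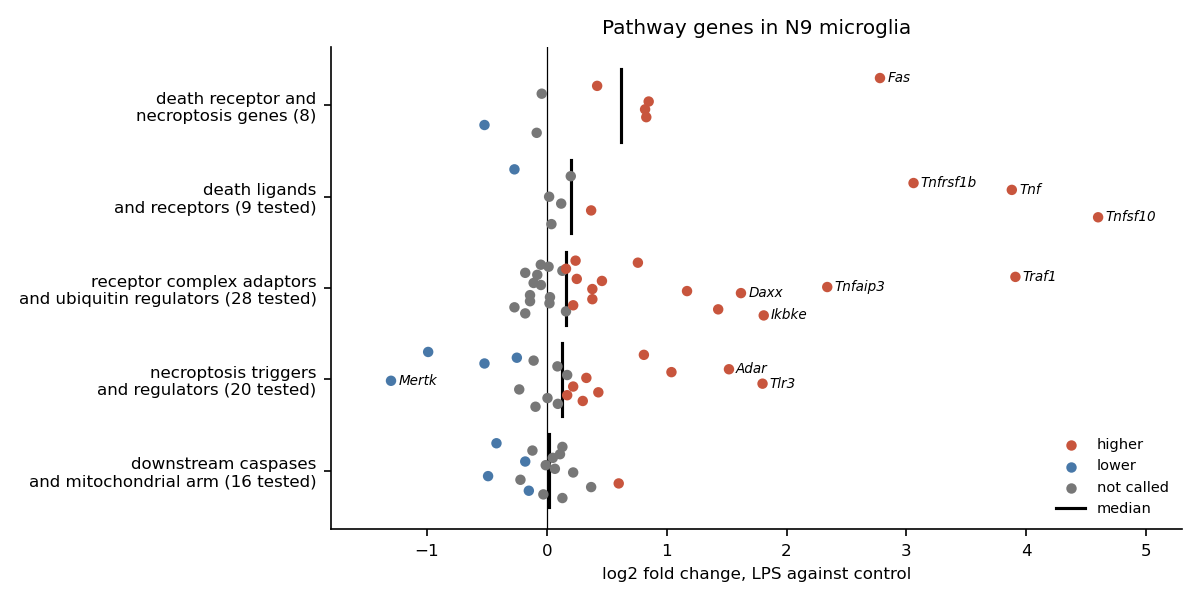
Log2 fold change (x axis) of every tested gene in the 8 genes described and in the 4 pathway lists (rows, with the number tested), red for higher, blue for lower and gray for not called at an adjusted p under 0.05, with the median as a black line. Points are spread vertically only for legibility, and the highest values are those of Tnfsf10, Traf1, Tnf, Tnfrsf1b and Fas.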

How the data were processed

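RNA-seq libraries of N9 microglia were made and sequenced by Novogene for the study. The authors deposited read counts per gene, without normalization, and the submitters' processing notes name featureCounts version 1.5.0-p3 and mm10 (GRCm38). The aligner and strand setting are not given in the sources used here. The deposited table also gives the gene length in bases, one of its other columns. A second deposited table holds the authors' own DESeq2 comparison, and its 18 columns of values per sample were not used. Samples were grouped by their titles.

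LPS was compared with control by edgeR version 4.0.16 (R 4.3.3, TMM, filterByExpr, quasi-likelihood test, no replicate term), with Benjamini-Hochberg adjustment over 12296 genes. Standard errors are the log2 fold change divided by the square root of F. Levels are CPM, RPKM, or log2 CPM with a prior count of 2 for ratios. The fit was tested on simulated data. Permutation tests used scipy version 1.17.1. Alternatives were DESeq2 version 1.42.0, RLE factors, other filters, glmTreat, a replicate block and libraries left out. Within groups, libraries differed by more than sampling noise (chi-square per gene from 3.47 to 7.35).

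The 8 genes and the gene lists were chosen with earlier results of these data known. Besides the 8, genes named by rule are those with the 4 largest changes in each pathway list (adjusted p under 0.05, mean of at least 50 counts), a set of key partners (Tnf, Tnfrsf1a, Tnfrsf10b, Fasl, Birc2, Tnfaip3, Cyld, Zbp1, Ticam1, Tlr3, Tlr4, Bid and Xiap, with others that are not reported here) and the 3 genes most like Fas. Tnfrsf21, Bax, the markers given as examples and the genes that overlap or lie between the 8 were named after their values were seen.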

Additional observations from a re-analysis of the deposited data

How the results depend on the processing

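For the 8 genes, the counts of 5 higher, 1 lower and 1 DEG were the same under DESeq2, RLE factors, no filter, a filter at a mean of 10 counts, the replicate block and each library left out in turn, and the direction of each gene was the same in all of these fits. glmTreat against a log2 fold change of 1, a stricter question, called 1 higher and 0 lower. In the pathway lists, glmTreat called 0 death ligands and receptors lower, 6 adaptors higher, 2 necroptosis regulators higher and 1 lower, and 0 downstream genes either way. DESeq2 called 0 death ligands and receptors lower. Among adaptors, RLE factors and no filter each called 1 lower. With both control replicates 2 and 3 left out, added after the data were seen and leaving 1 control library, 0 death ligands and receptors and 2 adaptors were lower, 1 necroptosis regulator was a DEG, and Cyld turned to -0.052. Parp1 had the same direction there, without passing. Leaving out 1 library gave from 0 to 1 death ligands and receptors lower, 0 to 1 adaptors lower, 1 to 2 necroptosis DEG, 1 to 4 downstream genes higher and -0.01 to 0.038 for Cyld. The 4 downstream genes came without control replicate 1, and the single necroptosis DEG came without control replicate 3 or LPS replicate 2, where Adar was at 1.492 and 1.479. The cause was not tested. Same-numbered libraries correlated at 0.138, 0.05 and 0.03 in their deviations from the group means. Other pairs lay between -0.086 and 0.043, the highest being control replicate 3 with LPS replicate 2. These small values do not settle whether libraries of the same number were paired. With the replicate block 1 adaptor was lower, 3 downstream genes were higher, and 4474 genes were called in all against 4221. The block left the ratio differences at 0.43, 0.99 and -0.48, where an exact sign-flip test of 3 pairs cannot go below p = 0.25. Without 1 library these ran from 0.38 to 0.48, 0.95 to 1.05 and -0.54 to -0.41. Depth limits what can be said of Fasl, Tnfrsf10b and Zbp1.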
